A study of Mus musculus with 6 samples.

Results

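The MAP kinase phosphatases examined here are the genes *Dusp1*, *Dusp4*, *Dusp5*, *Dusp6*, *Dusp7*, *Dusp8*, *Dusp10*, *Dusp14* and *Dusp16*. They were taken by a list of gene symbols, drawn up with earlier results of these data known, and make up 9 of the 24469 loci of the deposited expression table. Each symbol matched 1 locus, no locus merged it with another gene, and all 9 genes passed the filter on low values described below. RNA-Seq covered 3 groups of 2 libraries each, 6 in all, made from MPCs, mouse podocytes immortalized by a conditional switch that keeps them dividing only with interferon gamma. All cells had been grown at 33 °C with interferon gamma, differentiated for 10 days at 37 °C without it, and starved for 12 h in medium without serum. The HG cells then received 25 mM glucose for 12 h with no pretreatment, the rFGF1WT cells received 100 ng/mL of wild-type FGF1 for 1 h before the same glucose, and the rFGF1ΔHBS cells received 100 ng/mL of FGF1 with a mutated heparan sulfate binding site for 1 h before it. The labels mention D-mannitol as an osmotic control, and cells in mannitol or in normal glucose were not analysed here, so every comparison is between cells in HG.

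MAP kinases such as ERK, JNK and p38 are switched on when a kinase adds phosphate to a threonine and a tyrosine of the activation loop, and the dual-specificity phosphatases of this family remove both. Growth factor receptors, among them the FGF receptors that FGF1 binds, activate ERK through Ras and Raf, and ERK activity in turn induces the transcription of several of these phosphatases, which makes them a negative feedback on the pathway. The family is divided by place and substrate into nuclear inducible members (*Dusp1*, *Dusp4*, *Dusp5*), cytoplasmic members that prefer ERK (*Dusp6*, *Dusp7*), members that prefer JNK and p38 (*Dusp8*, *Dusp10*, *Dusp16*) and small atypical members without the docking domain for MAP kinases (*Dusp14*).

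The line is a cell culture model and carries only part of the podocyte program. *Podxl*, which encodes podocalyxin, had between 14.9 and 17.7 FPKM in the 6 libraries, whereas *Wt1*, a transcription factor of podocytes, did not exceed 0.0731 FPKM. *Nphs1* (nephrin) was between 0.618 and 0.942 FPKM. The sum over the 11 podocyte markers in the table was 180 to 185 FPKM in HG, 231 to 234 with rFGF1WT and 213 to 225 with rFGF1ΔHBS. With rFGF1WT 1 of the 6 tested markers, *Kirrel*, rose (log2 difference 1.24, adjusted p = 0.0483, limma), where 3.26% of all tested loci did. With rFGF1ΔHBS *Kirrel* did not pass (log2 difference 0.88, adjusted p = 0.0899). *Actn4* and *Cd2ap*, which are not specific to podocytes, made up most of this sum, and *Synpo* (synaptopodin) went the other way, with 9.58 and 10.2 FPKM in HG and 4.01 to 6.83 FPKM with either protein. The 5 endothelial markers summed to at most 0.167 FPKM in any library. The 4 tubule markers in the table summed to 114 to 123 FPKM in HG, 93.0 to 94.3 with rFGF1WT and 91.1 to 96.3 with rFGF1ΔHBS. *Cdh16* and *Lrp2* made up nearly all of this sum. *Aqp2* and *Slc12a1* did not exceed 0.01881 FPKM in any library, and *Slc34a1* and *Umod* were not listed. The 5 mesangial and mural markers summed to 32.1 to 32.9 FPKM in HG, 26.6 to 27.6 with rFGF1WT and 26.3 to 27.7 with rFGF1ΔHBS. Nearly all of this was *Pdgfrb* (31.8 and 32.7 FPKM in HG), and *Des*, *Itga8*, *Ren1* and *Rgs5* did not exceed 0.1611 FPKM. Of the macrophage markers, *Csf1r* fell from 9.56 and 10.7 FPKM in HG to between 3.21 and 3.94 with either protein (adjusted p = 0.0114 and 0.0140), *Adgre1*, *Ptprc* and *Lyz2* were near 0, and the row of *Cd68* is merged with *Eif4a1* and cannot be read for *Cd68* alone. The part of these markers in the differences below was not tested. FPKM summed to between 179594 and 185168 per library.

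Promoters of 8 of the 9 genes were matched in the RefSeq table of GRCm38.p6, and *Dusp4* was not among them. The 250 bases before each RefSeq start were searched on both strands for the cyclic AMP response element (CRE) TGACGTCA, its core TGACG, which the full element contains, the AP-1 motif TGANTCA, the ETS motif CCGGAAG and the CArG box, the binding motif of serum response factor. Shown are the first 210 of these bases for *Dusp5*, the gene that rose in both comparisons, for *Dusp6*, the gene with the largest fold of mean FPKM with rFGF1ΔHBS, and for *Dusp1*, the classic immediate early member. They run 5′ to 3′ on the strand of the gene, and capitals mark the matches.
Dusp5, chr19:53528895-53529104, plus strand: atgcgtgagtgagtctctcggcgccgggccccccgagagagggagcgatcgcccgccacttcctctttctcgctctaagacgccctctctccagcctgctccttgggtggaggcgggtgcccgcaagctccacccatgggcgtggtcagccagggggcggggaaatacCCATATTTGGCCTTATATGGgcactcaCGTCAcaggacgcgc
Dusp6, chr10:99262981-99263190, plus strand: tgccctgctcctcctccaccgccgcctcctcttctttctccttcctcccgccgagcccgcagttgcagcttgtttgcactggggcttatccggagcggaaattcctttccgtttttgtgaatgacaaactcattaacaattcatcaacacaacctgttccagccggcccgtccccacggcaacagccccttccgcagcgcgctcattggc
Dusp1, chr17:26508513-26508722, minus strand: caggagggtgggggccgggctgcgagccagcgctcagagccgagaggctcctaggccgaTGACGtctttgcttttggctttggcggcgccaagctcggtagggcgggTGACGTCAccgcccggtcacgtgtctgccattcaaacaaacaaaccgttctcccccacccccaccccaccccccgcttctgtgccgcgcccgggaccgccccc
The *Dusp5* sequence holds 2 CArG boxes side by side, from -82 to -73 and from -72 to -63 counted from the start, and a CRE core on the opposite strand from -55 to -51. The *Dusp1* sequence holds 1 full CRE from -143 to -136 and a further core from -191 to -187. *Dusp8* had 2 full CREs, *Dusp16* had 1 core, and no motif searched was found in *Dusp6*, *Dusp7*, *Dusp10* or *Dusp14*. For *Dusp1*, *Dusp8*, *Dusp10* and *Dusp14* the bases searched lay inside the annotated gene, so those before its outermost start were not searched. Among all 32851 promoters of the same length, 1.47% held a CArG box, 1.55% a CRE, 17.8% a CRE core, 6.75% the AP-1 motif and 6.91% the ETS motif. These matches describe letters only and no binding was measured.

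FPKM count fragments per length of transcript and per size of the library, so that levels of different genes can be set side by side. In HG the mean levels were ordered *Dusp7*, *Dusp14*, *Dusp10*, *Dusp16*, *Dusp1*, *Dusp6*, *Dusp8*, *Dusp4* and *Dusp5*, from 6.83 ± 0.224 FPKM (SD, n = 2) down to 1.25 ± 0.128 FPKM (SD, n = 2). In this order only the steps from *Dusp1* to *Dusp6* and from *Dusp6* to *Dusp8* separated both libraries of the higher gene from both libraries of the next one, the former by less than 0.01 FPKM. With either protein *Dusp6* stood first, and both of its libraries lay above both libraries of *Dusp7*, the next gene. All 9 genes together summed to 33.5 and 28.7 FPKM in the HG libraries, 50.6 and 54.9 FPKM with rFGF1WT, and 43.1 and 63.1 FPKM with rFGF1ΔHBS. Every library with a protein was above both HG libraries in this sum, and the spread was widest with rFGF1ΔHBS, where the mean was 53.1 ± 14.2 FPKM (SD, n = 2) against 31.1 ± 3.36 FPKM (SD, n = 2) in HG.

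**Figure D1:**
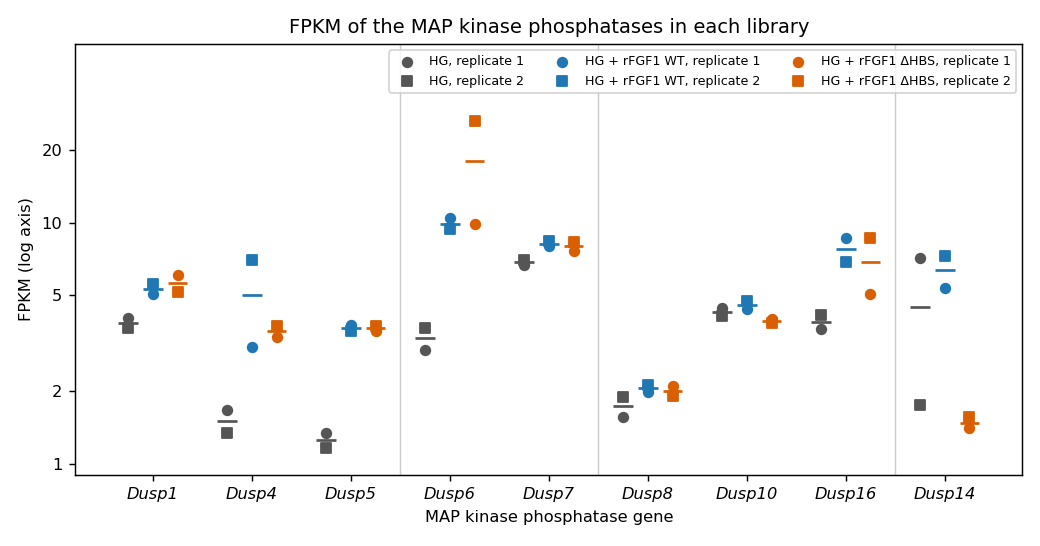
FPKM on a log axis for each of the 9 genes, with 1 symbol per library (circles for replicate 1, squares for replicate 2), a bar at each group mean and grey lines between the role groups. *Dusp5* keeps both libraries of each group close together, while *Dusp6* with rFGF1ΔHBS, *Dusp4* with rFGF1WT and *Dusp14* in HG have replicates far apart.

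The question of each comparison was which phosphatases differed in mRNA level between cells pretreated with an FGF1 protein and cells in HG alone, and between the 2 proteins. log2(FPKM + 1) of the 10562 loci whose FPKM averaged 1 or more entered a limma model of all 6 libraries, which left 3 residual degrees of freedom. A gene was called with a Benjamini-Hochberg adjusted p under 0.05 over all tested loci and a difference of at least 2-fold on that scale. Differences on this scale understate the change of genes with low FPKM. Nothing in the labels says that the 2 libraries of a group came from separate cultures, so the p-values measure only the spread between these libraries, which may be technical. No exact permutation test was used, since 2 libraries against 2 allow no two-sided p below 0.333.

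*Dusp5*, whose product is a nuclear phosphatase selective for ERK, rose with both proteins and was the 1 phosphatase called in either comparison with HG. It had 1.34 and 1.16 FPKM in the HG libraries, 3.76 and 3.56 FPKM with rFGF1WT, and 3.57 and 3.72 FPKM with rFGF1ΔHBS. All 4 libraries with a protein lay above both HG libraries, and the means, 3.66 ± 0.137 FPKM (SD, n = 2) and 3.64 ± 0.105 FPKM (SD, n = 2), were 2.93 and 2.91 times the HG mean. The log2 difference was 1.05 with rFGF1WT (standard error 0.080, 95% interval 0.84 to 1.27, adjusted p = 0.0131, limma) and 1.05 with rFGF1ΔHBS (standard error 0.080, 95% interval 0.83 to 1.26, adjusted p = 0.0140). In the same direction, 0.521% of all tested loci were called with rFGF1WT and 0.454% with rFGF1ΔHBS, against 1 of 9 phosphatases each. The call was close to its limits. Leaving out any 1 of the 4 libraries compared gave log2 differences of 0.99 to 1.11 but an adjusted p of 0.0523 to 0.0603 with rFGF1WT and of 0.0555 to 0.0648 with rFGF1ΔHBS.

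The gene lies on chr19:53529109-53542431 of GRCm38, plus strand, and the table gives it 1 transcript of 2473 nt with 4 exons. A gene annotated on the opposite strand, AC137853.2, overlaps its start, and the sources used here do not state whether strand was used in counting. Read depth was not given, and it was estimated from steps in the low values of loci with 1 transcript, on which 45.7% to 47.8% of these values lay within 2%. On that uncertain estimate the *Dusp5* values stood for 76 and 64 read pairs in HG, 208 and 200 with rFGF1WT, and 205 and 208 with rFGF1ΔHBS. The exact 95% Poisson intervals, which cover counting error only, reached at most 95.1 pairs in HG and began no lower than 173 with a protein.

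*Dusp4*, a nuclear phosphatase of ERK and JNK, had a higher mean with both proteins and did not pass the test. Its FPKM were 1.67 and 1.34 in HG, 3.04 and 7.01 with rFGF1WT, and 3.36 and 3.71 with rFGF1ΔHBS. Both protein groups lay wholly above HG, and the second rFGF1WT library was far above the first. The means were 3.33 and 2.35 times the HG mean, with log2 differences of 1.19 (standard error 0.35, adjusted p = 0.138) and 0.86 (adjusted p = 0.231). The gap between the 2 rFGF1WT libraries, 0.99 on the log2 scale, was reached by 5.31% of tested loci. Because all groups share 1 estimate of spread, this gap also entered the test of rFGF1ΔHBS. A fit of only the HG and rFGF1ΔHBS libraries gave *Dusp4* an adjusted p of 0.067. On the same uncertain estimate of read pairs, the 2 rFGF1WT libraries had 186 (95% Poisson interval 160 to 215) and 435 (395 to 478). These intervals, which cover counting error only, did not overlap, and the cause of the gap was not tested. Without the first rFGF1WT library the log2 difference with rFGF1WT was 1.68 (adjusted p = 0.0423), and without the second it was 0.69. Such a fit leaves rFGF1WT with 1 library and removes the gap within it, so the lone library is assumed to vary like those of the other groups and the p rests on their spread. *Dusp4* lies on chr8:34807297-34819894, plus strand, with 1 transcript of 2740 nt.

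*Dusp1*, an immediate early gene whose product acts on p38 and JNK as well as ERK, had 4.03 and 3.67 FPKM in HG, 5.06 and 5.54 FPKM with rFGF1WT, and 6.05 and 5.17 FPKM with rFGF1ΔHBS. The groups with a protein lay above HG in every library, by 1.38 and 1.46 times in the means, and the log2 differences of 0.38 (standard error 0.10, adjusted p = 0.115) and 0.44 (adjusted p = 0.0846) did not pass the test. The annotated *Dusp1* locus, chr17:26505590-26562128 on the minus strand, includes a long transcript that overlaps *Ergic1*, so fragments of the latter could be counted with it. Summed, the 3 nuclear genes had 7.04 and 6.17 FPKM in HG, 11.9 and 16.1 FPKM with rFGF1WT, and 13.0 and 12.6 FPKM with rFGF1ΔHBS.

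*Dusp6*, the cytoplasmic phosphatase of ERK that is widely read as a sign of FGF receptor signalling, had the highest level of the family with either protein and did not pass the test. It had 2.96 and 3.67 FPKM in HG, 10.4 and 9.38 FPKM with rFGF1WT, and 9.90 and 26.3 FPKM with rFGF1ΔHBS. The 4 libraries with a protein lay above both HG libraries, and the second rFGF1ΔHBS library stood apart from the other 3. The mean was 2.99 times that of HG with rFGF1WT (log2 difference 1.34, standard error 0.46, 95% interval 0.10 to 2.58, adjusted p = 0.179) and 5.45 times with rFGF1ΔHBS (log2 difference 2.003, 95% interval 0.77 to 3.24, adjusted p = 0.0882). The gap between the rFGF1ΔHBS libraries was 1.32 on the log2 scale, which 3.40% of tested loci reached, against a median gap of 0.106 over all tested loci. Without the first rFGF1ΔHBS library the log2 difference was 2.66 (adjusted p = 0.0267), and without the second it was 1.34. In these fits too the spread came only from the other groups, since the gap within rFGF1ΔHBS was removed with the library. Because all groups share 1 estimate of spread, the gap within rFGF1ΔHBS also entered the test of rFGF1WT, and a fit of only the HG and rFGF1WT libraries gave *Dusp6* an adjusted p of 0.0515. *Dusp6* lies on chr10:99263231-99267489, plus strand, and its FPKM covered 4 transcripts.

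*Dusp7*, the other cytoplasmic phosphatase selective for ERK, had the highest level in HG and a small difference. Its FPKM were 6.67 and 6.99 in HG, 7.98 and 8.36 with rFGF1WT, and 7.63 and 8.33 with rFGF1ΔHBS. Again no library with a protein overlapped HG. The means were 1.20 and 1.17 times the HG mean, and the log2 differences of 0.23 (standard error 0.070, adjusted p = 0.149) and 0.20 (adjusted p = 0.186) did not pass the test. *Dusp6* and *Dusp7* together made up 28.8% and 37.1% of the summed FPKM of the 9 genes in HG, 36.3% and 32.4% with rFGF1WT, and 40.7% and 54.8% with rFGF1ΔHBS. Both rFGF1WT libraries lay between the HG libraries in this share, and both rFGF1ΔHBS libraries lay above them.

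Among the members that prefer JNK and p38, *Dusp16*, whose product shuttles between nucleus and cytoplasm and acts mainly on JNK, had 3.62 and 4.14 FPKM in HG, 8.66 and 6.84 FPKM with rFGF1WT, and 5.07 and 8.65 FPKM with rFGF1ΔHBS. The protein groups did not overlap HG, with means 1.998 and 1.767 times that of HG and log2 differences of 0.84 (standard error 0.26, adjusted p = 0.151) and 0.65 (adjusted p = 0.224). *Dusp8* was low throughout, at 1.56 and 1.90 FPKM in HG, 1.99 and 2.11 FPKM with rFGF1WT, and 2.10 and 1.90 FPKM with rFGF1ΔHBS. The second HG and the second rFGF1ΔHBS library of *Dusp8* were nearly equal, and the log2 differences of 0.16 (95% interval -0.11 to 0.44) and 0.14 (95% interval -0.13 to 0.41) did not pass the test. *Dusp10*, which encodes a phosphatase of p38 and JNK found in both nucleus and cytoplasm, had 4.44 and 4.09 FPKM in HG, 4.37 and 4.75 FPKM with rFGF1WT, and 3.97 and 3.83 FPKM with rFGF1ΔHBS. The rFGF1WT libraries of *Dusp10* overlapped HG, the rFGF1ΔHBS libraries lay just below it, and the log2 differences were 0.08 (95% interval -0.12 to 0.28) and -0.10 (95% interval -0.30 to 0.10).

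*Dusp14*, the atypical member, had the widest spread in HG. Its FPKM were 7.16 and 1.76 in HG, 5.38 and 7.28 with rFGF1WT, and 1.40 and 1.56 with rFGF1ΔHBS. The first HG library was at the level of the rFGF1WT libraries and the second was close to the rFGF1ΔHBS libraries. The gap within HG was 1.57 on the log2 scale, which 2.74% of tested loci reached. Its log2 difference from HG was 0.62 with rFGF1WT (95% interval -0.86 to 2.09, adjusted p = 0.541) and -0.94 with rFGF1ΔHBS (95% interval -2.41 to 0.54, adjusted p = 0.376). Without the second HG library the former was -0.17, and without the first HG library the latter was -0.15. The locus of *Dusp14* combines 5 transcripts, and whether its fragments were divided among them in the same way in each library was not tested.

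**Figure D2:**
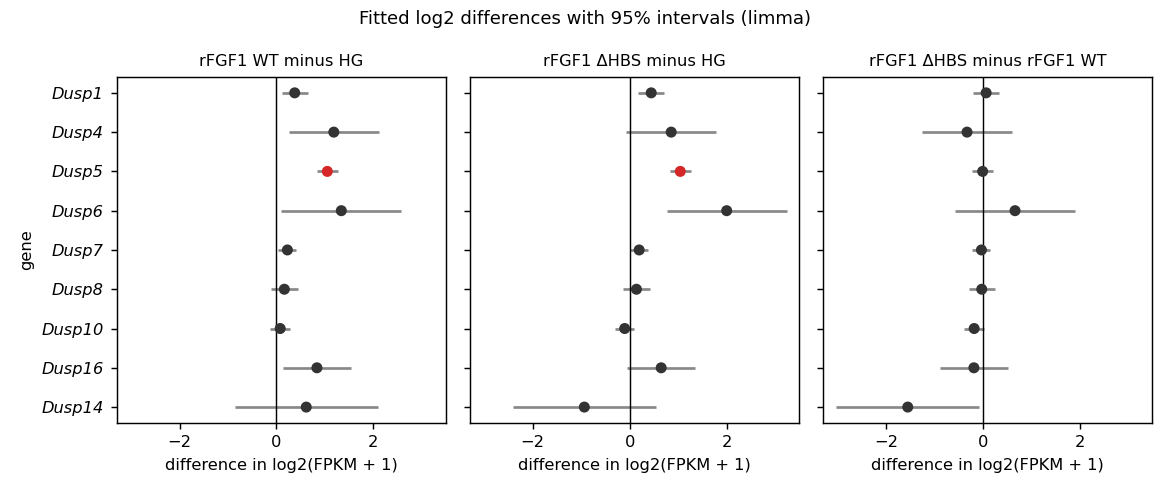
Fitted differences in log2(FPKM + 1) for the 9 genes in the 3 comparisons, with points at the estimate and lines for the 95% interval, and red for the genes called. *Dusp5* is the gene in red in both comparisons with HG, at 1.05 each, and no gene is red between the proteins.

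Counted over the family, 7 of 9 phosphatases had every rFGF1WT library above every HG library (*Dusp1*, *Dusp4*, *Dusp5*, *Dusp6*, *Dusp7*, *Dusp8* and *Dusp16*), where 24.1% of all tested loci did. The same 7 genes had every rFGF1ΔHBS library above HG, against 24.4% of all tested loci, *Dusp8* only by 1.901 against 1.898 FPKM. *Dusp10* and *Dusp14* had every rFGF1ΔHBS library below HG, 2 of 9, which is not above the share of 32.9% of all tested loci. At an unadjusted p under 0.05, 6 phosphatases were higher with rFGF1WT (*Dusp1*, *Dusp4*, *Dusp5*, *Dusp6*, *Dusp7*, *Dusp16*; 10.8% of tested loci) and 4 with rFGF1ΔHBS (*Dusp1*, *Dusp5*, *Dusp6*, *Dusp7*; 10.9%). The median log2 difference over the 9 genes was 0.62 with rFGF1WT and 0.44 with rFGF1ΔHBS, beside medians of -0.04 and -0.04 over all tested loci. The former is the value of *Dusp14*, the gene with the widest gap in HG, and without the second HG library it was 0.32. The 2 comparisons share the HG libraries, so their counts are not independent.

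**Figure D3:**
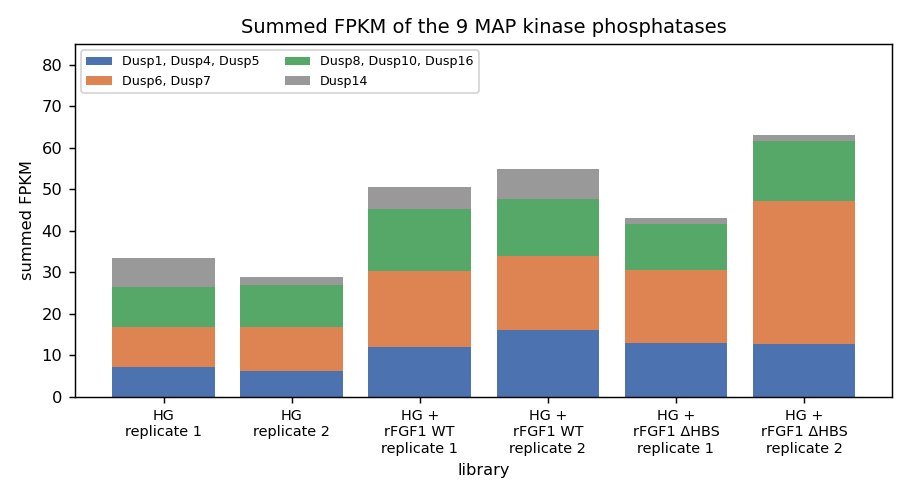
Summed FPKM of the 9 genes in each of the 6 libraries, stacked by role group from 0. The HG libraries reach 33.5 and 28.7 FPKM and the libraries with a protein 43.1 to 63.1 FPKM, and the second rFGF1ΔHBS bar is the tallest, with *Dusp6* and *Dusp7* at 54.8% of it.

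Between the 2 proteins, which were given at the same dose and for the same time and differ by mutations in the heparan sulfate binding site, no phosphatase was called, where 37 of the tested loci (0.35%) were called in either direction. At an adjusted p under 0.05 without a fold limit the count was also 0 phosphatases, and 0.549% of tested loci. At an unadjusted p under 0.05 there was 1, *Dusp14*, lower with rFGF1ΔHBS (2.41% of tested loci), and 2 had every rFGF1ΔHBS library below every rFGF1WT library, *Dusp10* and *Dusp14* (16.1% of tested loci). For *Dusp5* the log2 difference, rFGF1ΔHBS minus rFGF1WT, was -0.01 with a 95% interval of -0.22 to 0.21, and for *Dusp7* it was -0.03 with an interval of -0.22 to 0.16. The interval was far wider for *Dusp6* (-0.57 to 1.90 around 0.66), *Dusp4* (-1.26 to 0.61 around -0.33) and *Dusp16* (-0.88 to 0.51 around -0.19). Those of *Dusp4* and *Dusp6* included differences of 2-fold on the scale of log2(FPKM + 1), which understates differences in FPKM. The *Dusp6* difference turned on the rFGF1ΔHBS libraries, at 0.0016 without the second and 1.33 without the first. For *Dusp1* the difference was 0.07 (95% interval -0.20 to 0.34), for *Dusp8* -0.02 (-0.30 to 0.25), for *Dusp10* -0.18 (-0.38 to 0.02) and for *Dusp14* -1.55 (-3.03 to -0.08, adjusted p = 0.905). The wide gap of *Dusp14* within HG entered this test through the shared estimate of spread. A fit of only the rFGF1WT and rFGF1ΔHBS libraries gave *Dusp14* an adjusted p of 0.157.

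**Figure D4:**
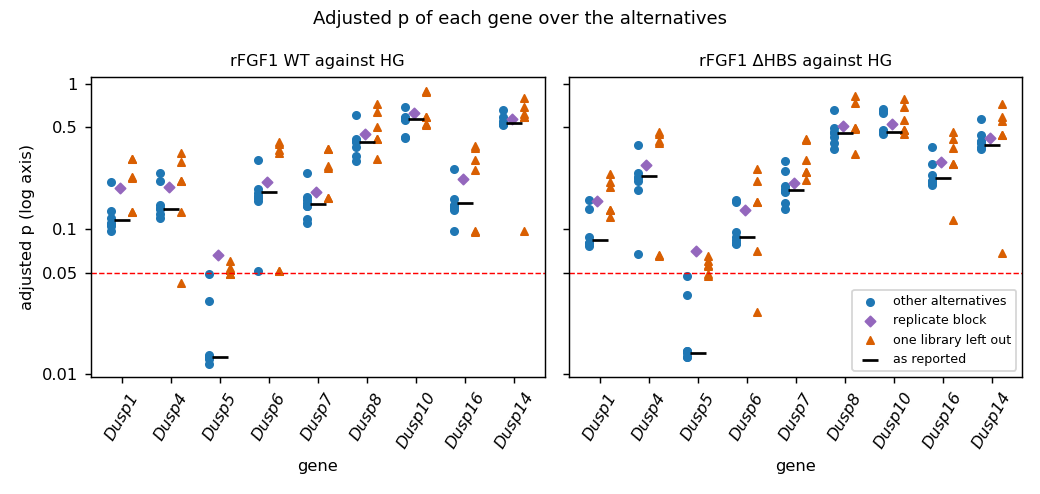
Adjusted p (log axis) of each gene against HG for each protein, as reported (black bar), under other processing (blue circles), with a replicate block (purple diamonds) and with 1 library left out (orange triangles), with the 0.05 limit dashed. *Dusp5* is below the limit as reported and crosses it with the block and when a compared library is left out, and the other genes are above the limit in nearly every setting, with *Dusp4* at 0.0423 without the first rFGF1WT library and *Dusp6* at 0.0267 without the first rFGF1ΔHBS library.

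The remaining genes of the pathway were taken from lists. Other feedback inhibitors of ERK, the Sprouty and Spred proteins and their like, had 9 tested genes, of which 3 rose with rFGF1WT and 3 with rFGF1ΔHBS at an adjusted p under 0.05, where 3.26% and 3.37% of all tested loci did, and their median log2 differences were 0.70 and 0.95. *Spry4* had 0.0568 and 0.0590 FPKM in HG, 1.69 and 1.48 FPKM with rFGF1WT, and 1.58 and 1.69 FPKM with rFGF1ΔHBS (log2 differences 1.29 and 1.32, adjusted p = 0.0130 and 0.0140). *Errfi1*, which encodes an inhibitor of EGF receptor kinases, rose by 0.70 (adjusted p = 0.0423) and 0.95 (adjusted p = 0.0226). *Spry2* rose by 0.83 with rFGF1WT (adjusted p = 0.0492), with 0.71 and adjusted p = 0.0648 for rFGF1ΔHBS, and *Spred3* rose by 1.03 with rFGF1ΔHBS (adjusted p = 0.0393), with 0.80 and adjusted p = 0.0656 for rFGF1WT. The 13 tested ERK response genes had median differences of 0.74 and 0.88. Of these, 5 rose with each protein at an adjusted p under 0.05, where 3.26% and 3.37% of all tested loci did. Among them were *Etv4* (log2 differences 2.83 and 2.74) and *Etv5* (2.56 and 2.61), ETS transcription factors, *Ccnd1* (2.70 and 2.73), which encodes cyclin D1, and *Phlda1* (1.30 and 1.32). The list did not rise as a whole. *Egr1* had 13.3 to 15.2 FPKM over the 6 libraries. *Fosl2* was lower with either protein, with 12.6 and 14.8 FPKM in HG and 2.66 to 9.16 FPKM with a protein, and did not pass the test. Other genes of the list had replicates far apart. *Jun* had 1.95 and 19.2 FPKM in HG, *Junb* 17.0 and 0 FPKM with rFGF1WT, and *Ier2* 11.1 and 0 FPKM in HG. The cause of these gaps was not tested.

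The lists also held the kinases that the phosphatases act on. None of the 10 tested MAP kinases had an adjusted p under 0.05 in any comparison, where 6.19% of all tested loci did in either direction with rFGF1WT and 6.26% with rFGF1ΔHBS, so that a count of 0 in so short a list is near the background. Their median log2 differences were -0.07 with rFGF1WT and -0.01 with rFGF1ΔHBS. Of 28 tested kinases and adaptors upstream, 1 fell with each protein, which is near the background of 2.94% and 2.89% of tested loci. It was *Gab1*, an adaptor that links receptors to PI3K and Ras, with 10.3 and 10.7 FPKM in HG, 6.63 and 6.44 FPKM with rFGF1WT, and 7.93 and 7.49 FPKM with rFGF1ΔHBS (log2 differences -0.60, adjusted p = 0.0189, and -0.40, adjusted p = 0.0405). Of 9 tested kinases downstream, *Mknk1*, a kinase of the translation factor eIF4E, fell by 0.38 with rFGF1WT (adjusted p = 0.0403) and had a difference of -0.30 with rFGF1ΔHBS (adjusted p = 0.0620). None of 7 tested other dual-specificity phosphatases and pseudophosphatases, and none of 7 tested phosphatases of other families that act on MAP kinases, passed an adjusted p of 0.05 in any comparison, counts that are again near that background. No gene of these lists passed it between the proteins, where 0.549% of all tested loci did, a count that is also near the background.

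*Dusp5* was also compared with every named locus above 0 in all 6 libraries by the root mean square difference of log2(FPKM + 1), each gene centred on its own mean. Of 10210 loci the closest over the 6 libraries were *Klhdc8a* (0.056), *Epha2* (0.057) and *Cnot9* (0.064). *Klhdc8a* went from 5.93 and 5.27 FPKM in HG to 12.1 and 12.3 FPKM with rFGF1WT and to 11.1 and 12.1 FPKM with rFGF1ΔHBS. *Epha2*, an ephrin receptor, had 22.6 and 22.2 FPKM in HG and 49.1 to 52.4 FPKM in the libraries with a protein.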

How the data were processed

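Total RNA was extracted with TRIzol, poly(A) mRNA was isolated, and both ends of each fragment were sequenced on an Illumina HiSeq instrument. The authors deposited FPKM per locus in 1 table, and their methods name edgeR for the summary of FPKM. The submitters' processing notes list HISAT2 2.0, StringTie 1.3.0 and Bowtie 0.12.2 and the build mm8, while 78602 of the 78903 Ensembl transcripts in the table are present in GENCODE M21 of GRCm38, from which gene positions were taken. Library depth is not stated, and read pairs were estimated from the steps of low values.

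Groups were taken from the labels. A model of log2(FPKM + 1) was made in limma 3.58.1 under R 4.3.3 (lmFit, contrasts, eBayes with a trend) for loci averaging 1 FPKM or more, with the 2-fold and 0.05 limits of the study. Benjamini-Hochberg adjustment was over all tested loci. The script was tested on simulated data. Tables and plots used Python 3.11.15, numpy 2.4.6, pandas 2.3.3, scipy 1.17.1 and matplotlib 3.10.9. All 9 phosphatases are named, with at most 4 genes per other list that had an adjusted p under 0.05 in any comparison, largest log2 difference first, and the 3 loci closest to a called phosphatase. *Dusp2*, *Dusp3*, *Dusp11*, *Dusp18*, *Egr1*, *Fosl2*, *Jun*, *Junb* and *Ier2* and the markers of cell types given by level were named after their values were seen. The members and the lists were chosen with earlier results of these data known, so their counts are no independent evidence. The 16 alternatives were a pseudocount of 0.1, no filter, a filter at 5 FPKM, only loci above 0, median-ratio scaling, quantile normalization, robust empirical Bayes, a replicate block, only the 4 libraries compared, adjusted p alone, and leaving out each of the 6 libraries. Deviations of libraries with the same replicate number correlated between -0.05 and 0.10, and the fit without the block is reported. With the block no phosphatase was called. The result of 1 cell type marker is not reported here.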

Additional observations from a re-analysis of the deposited data

Results flagged for a closer look

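*Dusp10* and *Dusp14* lay on opposite sides of the HG mean with the 2 proteins, and neither passed the test in any comparison. Both rFGF1WT libraries lay above the mean of the HG libraries and both rFGF1ΔHBS libraries lay below it. The first rFGF1WT library, at 4.37 FPKM for *Dusp10* and 5.38 FPKM for *Dusp14*, lay between the HG libraries. The log2 difference, rFGF1ΔHBS minus rFGF1WT, was -0.18 for *Dusp10* and -1.55 for *Dusp14*, with an adjusted p of 0.905 for each (limma, Benjamini-Hochberg adjustment). A fit of only the rFGF1WT and rFGF1ΔHBS libraries, without the spread within HG, gave adjusted p of 0.882 and 0.157. The HG mean of *Dusp14* stands between libraries at 7.16 and 1.76 FPKM, and without the second HG library its difference between rFGF1WT and HG was -0.17. Over the fits that left out 1 library the differences between the proteins ranged from -0.23 to -0.13 and from -1.74 to -1.36.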

How the results depend on the processing

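With a filter at a mean FPKM of 5, 3 phosphatases were tested and 0 were called with either protein, with medians of 0.84 and 0.65, and 69 loci were called with rFGF1WT and 18 between the proteins. A pseudocount of 0.1 gave rFGF1WT a median of 0.79 and 151 loci with rFGF1ΔHBS. With the replicate block, 39, 36 and 6 loci were called with rFGF1WT, with rFGF1ΔHBS and between the proteins, and 0 phosphatases, with an adjusted p of *Dusp5* of 0.0657 and 0.0704. Adjusted p alone gave 654, 661 and 58 loci, and only loci above 0 gave 13 between the proteins. Under the other 7 alternatives that kept all libraries and tested it, *Dusp5* had an adjusted p under 0.05.

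Leaving out 1 library gave 0 to 1 called phosphatases with each protein, medians of 0.32 to 0.76 with rFGF1WT and 43 to 103 loci between the proteins. Where 1 was called, it was *Dusp4* for rFGF1WT without its first library, *Dusp6* for rFGF1ΔHBS without its first library, and *Dusp5* for either protein without a library of the other protein (adjusted p 0.0478 to 0.0489). Fits that leave a group with 1 library assume that it varies like the others. *Dusp14* with rFGF1WT ranged from -0.17 to 1.40. Between the proteins the sign turned for *Dusp5* (-0.036 to 0.024), *Dusp4* (-0.82 to 0.16), *Dusp8* (-0.073 to 0.024), *Dusp1* (-0.029 to 0.16), *Dusp7* (-0.087 to 0.025) and *Dusp16* (-0.52 to 0.15). The cause of these changes was not tested. Precision is limited by 2 libraries a group and by low FPKM.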

Other observations

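Among the dual-specificity phosphatases outside the 9 genes, *Dusp3* had 14.2 to 17.3 FPKM in the 6 libraries, above the HG level of every gene of the 9. *Dusp2*, another nuclear inducible phosphatase, did not exceed 0.411 FPKM and was not tested. *Dusp18* had 15.0 and 0.379 FPKM in HG, 0.438 and 0.133 FPKM with rFGF1WT, and 14.5 and 0.124 FPKM with rFGF1ΔHBS, so that 1 library of HG and 1 of rFGF1ΔHBS stood far above the other 4. *Dusp11* had 4.46 FPKM in the first rFGF1ΔHBS library and 15.0 to 15.7 FPKM in the other 5. The cause of these gaps was not tested.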
